A study of Homo sapiens with 20 samples.

Results

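Intronic distal H3K27ac regions are stretches of acetylated chromatin that lie inside a protein-coding gene but away from any promoter. They were defined here by merging the H3K27ac peak lists of 16 libraries on chromosomes 1 to 22 and X wherever peaks shared at least 1 bp, and by keeping each merged region that lay inside a GENCODE protein-coding gene body and over 5 kb from every canonical protein-coding start site. This gave 18160 regions of 58859 merged regions (30.9%). The other classes were 14595 regions within 1 kb of a start site, 20294 intergenic distal regions and 5810 regions that met none of these definitions. The name intronic held for most of them: 14572 (80.2%) were free of every protein-coding exon, 3588 overlapped an exon and 1899 overlapped a UTR. One gene body held 17255 of the regions, and 905 lay in 2 or more overlapping gene bodies.

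The libraries came from HCT-116, an established human colorectal cancer cell line, either wild type (WT) or lacking FBXW7, the substrate-recognition subunit of a ubiquitin ligase (KO, FBXW7-/-). Cells of both genotypes were transfected for 48 h with endoribonuclease-prepared siRNAs against a control sequence (esiCT) or against HDAC4 (esiHDAC4), a class IIa histone deacetylase, and were left untreated (UNT) or received 50 µM oxaliplatin (OXPT), a platinum drug that crosslinks DNA, for the last 24 h. The 8 combinations had 2 libraries each, replicates A and B. The sources used here do not say whether the KO line was 1 clone. The methods of the study call A and B biological replicates. The labels state that 3 independent experiments were pooled, without saying how the pools relate to the letters. The p-values measure the spread between these libraries.

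Acetylation of lysine 27 on histone H3 is deposited by the acetyltransferases CBP and p300 at active promoters and active enhancers. Enhancers in introns can act on the promoter of the gene that holds them or on a neighbouring promoter, and long clusters of strongly acetylated enhancers are called super-enhancers. In colorectal cancer cells such elements are bound by factors of the AP-1, TEAD, KLF and TCF7L2/LEF families, among others.

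The sequences below are the 200 bases around the summit of some intronic regions that were called in all 16 libraries and are named below. They are the strongest region of PCDH7, the strongest of PPP3CA, the PCDH7 region with the smallest p for a lower summit in KO, and the TANGO6 region that was higher in KO. The last is a BIK region, which did not pass the test between esiRNAs (limma adjusted p = 0.816). The sequences are on the plus strand of hg38. Capitals mark matches to the letters searched on both strands, TGACTCA and its reverse complement TGAGTCA for AP-1, GGAATG for TEAD, CACCC for KLF and ATCAAAG for TCF7L2/LEF. Letters of different motifs can share bases (the end of TGACTCA and the start of CACCC, for example), which did not happen in the windows shown.
PCDH7 1, chr4:30791565-30791764: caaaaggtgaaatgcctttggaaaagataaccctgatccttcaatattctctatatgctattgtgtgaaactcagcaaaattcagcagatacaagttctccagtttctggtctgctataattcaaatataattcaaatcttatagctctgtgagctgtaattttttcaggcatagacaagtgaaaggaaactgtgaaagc
PPP3CA 1, chr4:101159465-101159664: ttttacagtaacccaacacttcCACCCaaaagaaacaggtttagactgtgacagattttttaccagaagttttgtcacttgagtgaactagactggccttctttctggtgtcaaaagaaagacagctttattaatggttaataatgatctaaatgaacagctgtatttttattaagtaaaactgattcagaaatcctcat
PCDH7 3, chr4:30904352-30904551: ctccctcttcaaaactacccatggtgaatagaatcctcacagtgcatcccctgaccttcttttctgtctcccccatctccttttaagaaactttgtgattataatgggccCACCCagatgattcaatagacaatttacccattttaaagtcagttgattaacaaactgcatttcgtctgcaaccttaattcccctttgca
TANGO6, chr16:69071801-69072000: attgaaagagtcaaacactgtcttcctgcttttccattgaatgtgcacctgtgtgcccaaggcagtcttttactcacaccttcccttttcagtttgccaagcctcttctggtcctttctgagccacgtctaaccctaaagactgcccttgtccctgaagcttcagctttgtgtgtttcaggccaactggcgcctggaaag
BIK, chr22:43127893-43128092: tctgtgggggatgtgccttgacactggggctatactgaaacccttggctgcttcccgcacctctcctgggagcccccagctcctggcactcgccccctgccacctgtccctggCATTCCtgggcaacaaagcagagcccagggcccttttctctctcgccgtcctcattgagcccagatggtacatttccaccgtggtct
The PPP3CA and PCDH7 3 windows held 1 CACCC each and the BIK window held 1 match to the TEAD letters, while the other windows held none of the 4 motifs. A match is a description of the letters only.

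Over all intronic distal regions, the 300 bp around the highest summit had a median GC content of 47.3% and 3 CpG sites. Start-site windows of the same length had 60.3% and 16, and intergenic distal windows 47.0% and 4. The AP-1 letters were present in 5.44% of intronic distal windows, against 4.77% of the windows of all 58859 regions and 2.75% at start sites. The TEAD letters were found in 15.1%, against 14.8% of all windows, and the TCF7L2/LEF letters in 3.73%, against 3.16%. The short KLF letters were found in 52.9%, against 55.7% of all windows and 64.1% at start sites. The 123 intronic distal regions called in every library had a lower median GC content, 40.0%, with the KLF letters in 39.0% and the AP-1 letters in 4.88%. Intergenic distal regions called in every library had nearly the same GC content, 39.8%.

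The regions lay at a median of 35.9 kb from the nearest start site, with quartiles of 15.6 and 82.3 kb. The nearest start site was that of a host gene for 73.3% of them. Of the 12933 regions wholly inside 1 intron of a canonical transcript, 28.8% were in the first intron. The first intron held 21.0% of the 953184 positions, spaced 1 kb apart, that met the same distance rule inside 1 intron. The percentage was 26.6% for regions called in 1 library and 35.2% for the 1206 called in 8 or more libraries. A region had to fit inside the intron with its whole width, which a position does not, so these percentages are not measured alike. By chromosome, the density ran from 2.25 regions per eligible Mb on chromosome X to 32.2 on chromosome 17, with chromosomes 19 (28.9), 22 (25.9) and 16 (22.5) next to it. These are descriptions without a test.

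Most intronic distal regions were seen once. Of the 18160, 11235 (61.9%) were called in 1 library, 1831 (10.1%) in 8 or more and 123 (0.677%) in all 16. Start-site regions recurred far more, with 17.2% called in 1 library and 43.9% in 8 or more, whereas intergenic distal regions followed the intronic ones with 64.6% and 9.64%. The median merged width was 432 bp over all intronic distal regions and 7618 bp over those called in all libraries. Merging joined the peaks of different libraries, so these are not widths of single peaks. The longest, in PCDH7, spanned 102120 bp.

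The intronic regions that recurred overlapped super-enhancers more often than intronic regions as a whole. Regions called in all 16 libraries were also wider (median 7618 bp, against 432 bp over all), and the part of width in the overlap was not tested. The super-enhancers were called from H3K27ac in the same libraries, so this overlap is a description. A super-enhancer of any library overlapped 26.7% of all intronic distal regions, 63.3% of those called in 8 or more libraries and 96.7% of those called in 16. For start-site regions the percentages were 3.30%, 6.07% and 53.2%, and for intergenic distal regions 25.2%, 62.5% and 94.1%. Within a library, the share of its called intronic regions that overlapped its own super-enhancers ran from 12.3% in KO esiHDAC4 OXPT B to 42.6% in WT esiCT UNT B.

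**Figure D1:**
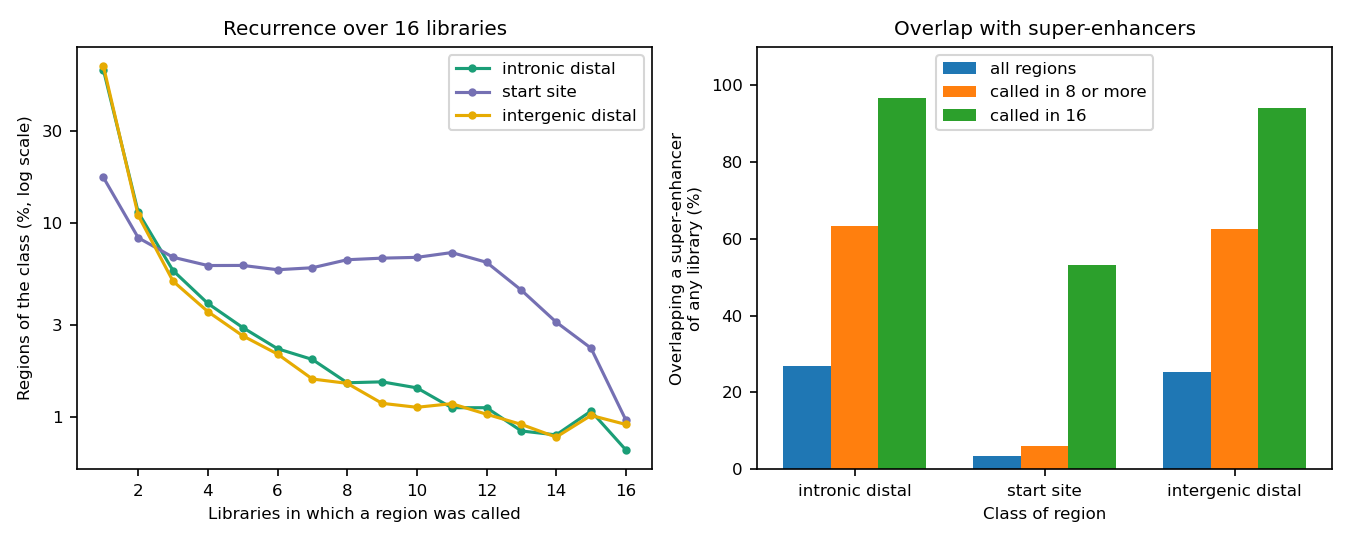
Left, percentage of the regions of each class (y axis, log scale) called in 1 to 16 libraries (x axis); right, percentage of each class overlapping a super-enhancer of any library, for all regions, those called in 8 or more libraries and those called in 16. Intronic and intergenic distal regions follow nearly the same curve, with 61.9% and 64.6% called in 1 library, while 43.9% of start-site regions were called in 8 or more.

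The regions called in a library repeated within groups more than between them. The Jaccard index (regions called in both libraries over regions called in either) of replicates A and B of a group averaged 0.248, and that of A and B libraries of different groups 0.208 (one-sided exact permutation test over all assignments of the B libraries to groups, p = 9.92e-05). WT esiCT UNT had the highest index, 0.401, and KO esiHDAC4 UNT the lowest, 0.0523. The index is limited by unequal lengths of the 2 lists, and the part of length in it was not tested. The A and B libraries called 5658 and 4724 intronic distal regions in WT esiCT UNT, and 3498 and 262 in KO esiHDAC4 UNT. The same means were 0.356 and 0.330 for start-site regions and 0.251 and 0.213 for intergenic distal regions.

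The lists differed widely in length, which touches the overlaps above and every count below. The libraries held 1752 to 27927 peaks, 271549 in all on these chromosomes. The lengths of the lists are not sequencing depths, and the read depth is not given in the files. The background reads per position that the peak statistics imply ran from 1.65 to 3.07 in WT and from 1.02 to 2.89 in KO libraries, and the part of these differences in the counts was not tested. KO esiHDAC4 UNT B had the shortest list and the lowest background, and results that turn on it are given with and without it.

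KO libraries carried fewer called intronic distal regions than WT libraries, and this was not particular to that class. All called regions numbered 7840 to 24747 in WT and 1131 to 17609 in KO libraries. Start-site regions numbered 3047 to 11472 and 377 to 8563, and intergenic distal regions 2219 to 5801 and 431 to 4572. The numbers of the other classes were not tested. The number of intronic distal regions was 2065 at the lowest, 4304 at the median and 5658 at the highest over the 8 WT libraries. In the 8 KO libraries it was 262, 1614.5 and 3697. The groups overlapped, mainly through replicate A, where the KO libraries held 1783, 3697, 3498 and 3595 regions and the WT libraries 5658, 4786, 3328 and 3789. In replicate B all 4 KO libraries, at 1018, 1446, 262 and 1043, were below the lowest WT library, at 2065. KO was lower in 7 of 8 matched pairs. On the log2 scale the difference was -1.37 ± 1.47 (SD of 8 pairs; two-sided exact permutation test within letters, p = 0.00245, and 0.0441 after Benjamini-Hochberg adjustment over 18 tests). It was -0.51 in replicate A (exact p = 0.171) and -2.23 in replicate B (exact p = 0.0286, the smallest that 4 against 4 libraries can give). The difference between letters was itself tested and had an exact permutation p of 0.0571. When each list was cut to its 1752 strongest peaks, the difference was -0.11 (exact p = 0.195), so the call did not hold at equal length. Nor did it hold without the block on letters (exact permutation p = 0.00730, adjusted 0.0703). Leaving out 1 library gave adjusted p-values of 0.0110 to 0.109 (exact permutation tests), over 0.05 without any 1 WT library of replicate A or any 1 KO library of replicate B and under it in the other 8 cases.

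Neither treatment moved the number by more than the spread between libraries. OXPT libraries held 1043 to 4786 regions with a median of 3646, and UNT libraries 262 to 5658 with a median of 3413, so the groups overlapped over nearly the whole range. The log2 difference was 0.24 ± 0.97 (SD of 8 pairs; exact permutation p = 0.696). For esiHDAC4 against esiCT it was -0.20 ± 0.94 (SD of 8 pairs; exact permutation p = 0.753). The response to OXPT averaged 0.90 ± 0.84 in the 4 KO pairs, all of which rose, and -0.41 ± 0.58 in the 4 WT pairs, of which 1 rose. The difference of 1.31 had an exact permutation p of 0.0571 over 70 arrangements. Replicate B held fewer regions than replicate A by 1.06 on the log2 scale (exact permutation p = 0.0469, adjusted 0.141).

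The share of a library's called regions that were intronic distal was higher with oxaliplatin. It was 18.1% at the lowest, 22.9% at the median and 24.1% at the highest in UNT libraries, and 21.0%, 24.4% and 26.5% in OXPT libraries. The 2 groups overlapped, but within the 8 matched pairs the OXPT library was higher every time, by 0.105 to 4.77 percentage points. The mean difference was 2.44 ± 1.43 points (SD of 8 pairs; two-sided exact permutation test within letters, p = 0.00653, adjusted 0.0469). It was 3.00 points in replicate A (exact p = 0.0857) and 1.88 in replicate B (exact p = 0.0286). Leaving out any 1 library gave 1.88 to 2.93 points, each with an exact permutation p of at most 0.0233. After adjustment these p-values ran from 0.00735 to 0.109 and were over 0.05 in 15 of 16 cases, the exception being KO esiCT OXPT A. It also did not hold without the block on letters (exact permutation p = 0.0235, adjusted 0.106). With equal-length lists the difference was 2.38 points (exact p = 0.0286, adjusted 0.0857, 6 of 8 pairs). Among peaks with a −log10 q of at least 10 it was -0.35 points (exact p = 0.95), in lists that ran down to 20 peaks. The log2 ratio of intronic distal to start-site regions differed by 0.18 (exact permutation p = 0.0722, adjusted 0.152 over 21 tests) and that of intronic to intergenic distal regions by 0.23 (exact permutation p = 0.0310, adjusted 0.0931). Neither passed after adjustment. The background of the replicate A libraries was higher with OXPT in all 4 pairs, for example 1.95 and 2.10 in WT esiCT, and that of the B libraries moved both ways, from 3.07 to 1.97 in WT esiCT and from 1.02 to 1.51 in KO esiHDAC4. Its part in the share was not tested.

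KO libraries had a mean share of 22.4% ± 2.48 and WT libraries of 24.0% ± 1.80 (SD, n = 8 each), a difference of -1.55 points (exact permutation p = 0.106, adjusted 0.191). With the regions that touch an exon left out, a setting added after the data were seen, it was -2.03 points (exact permutation p = 0.0180, before adjustment). The shares under esiHDAC4 and esiCT, 23.4% ± 2.08 and 22.99% ± 2.51 (SD, n = 8 each), differed by 0.43 points (exact permutation p = 0.662). The OXPT response of the share was 2.27 points in KO and 2.61 in WT pairs (difference -0.34, exact permutation p = 0.8). Replicate B exceeded replicate A by 2.45 points in 7 of 8 groups (exact permutation p = 0.0234, adjusted 0.0844). The letters also differed in base composition: the median GC content of the called intronic windows was 45.7% to 51.0% in the A libraries and 41.3% to 45.7% in the B libraries.

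**Figure D2:**
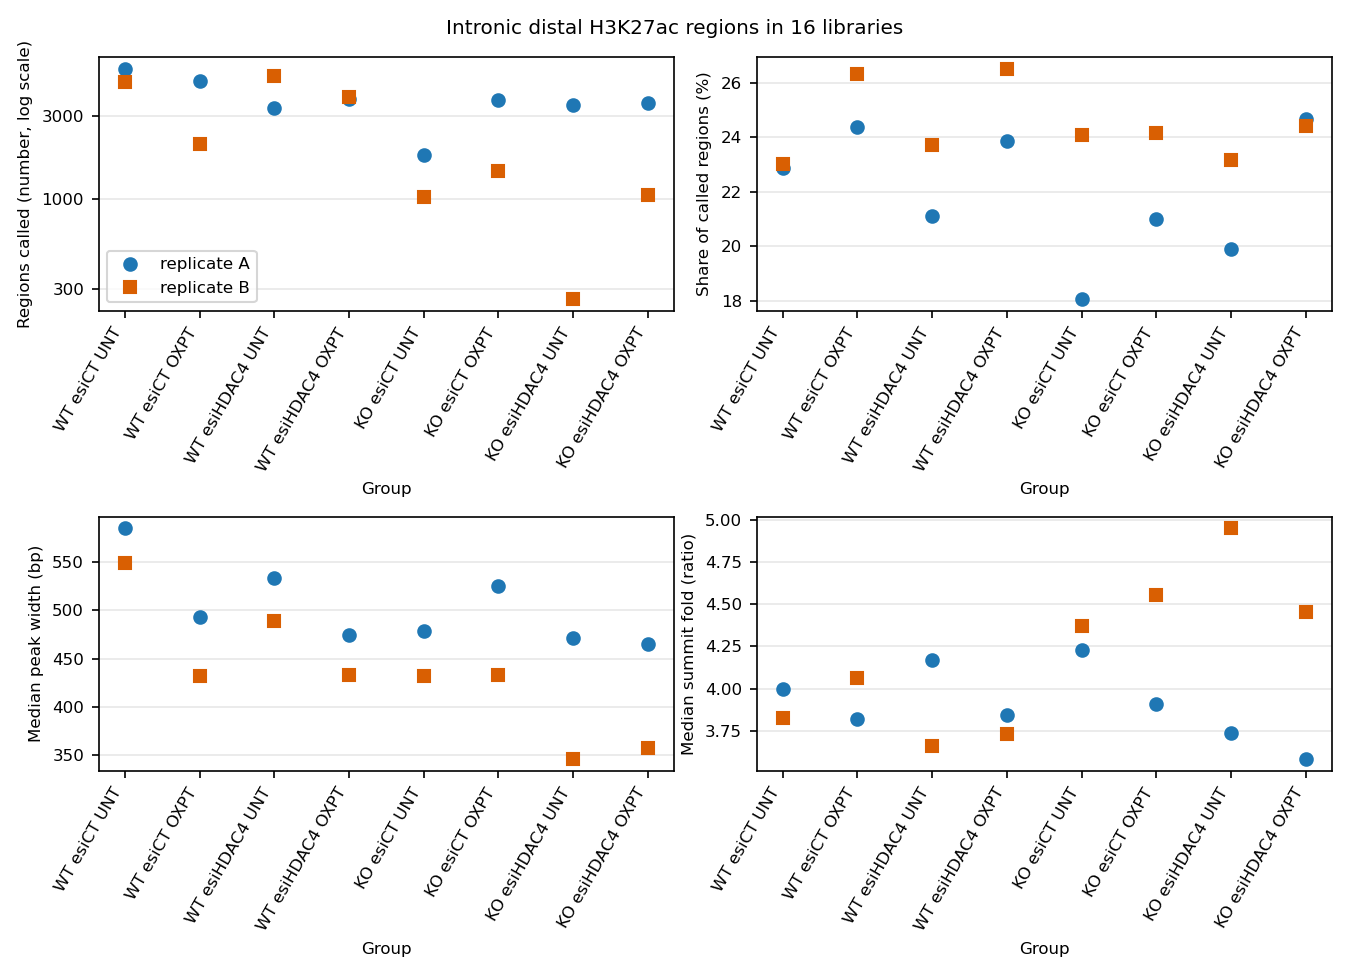
Number of intronic distal regions called (log scale), their share of all called regions in percent, the median width of their peaks in bp and their median summit fold, for each of the 8 groups on the x axis, with replicate A as circles and replicate B as squares. KO replicate B libraries hold the fewest regions (262 to 1446), and every OXPT library has a higher share than the UNT library of the same genotype, esiRNA and letter.

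The width of peaks in intronic regions differed between genotypes only before adjustment. Median widths ran from 432 to 585 bp in WT and from 346 to 525 bp in KO libraries, with much overlap, and the log2 difference was -0.19 ± 0.20 (SD of 8 pairs; exact permutation p = 0.0167, adjusted 0.0753, and 0.0269 without KO esiCT OXPT A). Widths were smaller in replicate B than in A in 8 of 8 groups, by 0.22 on the log2 scale (exact permutation p = 0.0078, the smallest possible, adjusted 0.0469). With any 1 library left out the difference was -0.24 to -0.19. The exact permutation p was 0.0156 each time, the smallest possible once a group loses its pair. After adjustment it was 0.0502 to 0.109, so the adjusted call could not be judged in this way. The width differed by -0.10 with OXPT (exact permutation p = 0.288) and by -0.14 with esiHDAC4 (exact permutation p = 0.102), neither past the threshold. Without KO esiHDAC4 UNT B the value for OXPT was -0.16 (exact permutation p = 0.0347), and without WT esiHDAC4 UNT A that for esiHDAC4 was -0.18 (exact permutation p = 0.0482), both before adjustment. Summit fold is the height of a peak over its local background at its highest point, taken for a region from its highest peak in a library. Its median over the intronic regions of a library ran from 3.58 to 4.95, and none of the 4 comparisons passed: 0.11 for KO against WT (exact permutation p = 0.0661), -0.04 for OXPT (0.51), -0.03 for esiHDAC4 (0.599) and 0.10 for B against A (0.211), all on the log2 scale.

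Within most libraries, but not those with the shortest lists, intronic peaks were narrower and lower than those at start sites. The log2 difference in median width was -0.17 (exact permutation p = 0.00632, adjusted 0.0332 over 21 tests, narrower in 11 of 16 libraries) and that in median summit fold -0.12 (exact permutation p = 2.14e-04, adjusted 0.00224, lower in 14 of 16). The 5 libraries with wider intronic peaks were WT esiCT OXPT B and the KO libraries of replicate B. They had the shortest lists, at 1752 to 10562 peaks. Intronic summits were higher in KO esiCT OXPT B (4.55 and 4.53) and KO esiHDAC4 UNT B (4.95 and 4.91). The part of list length was not tested. Among regions called in every library the order turned: intronic regions had summits 0.09 higher on the log2 scale than start-site regions (exact permutation p = 9.16e-05, adjusted 0.00192, higher in 15 of 16) and 0.04 higher than intergenic ones (exact permutation p = 0.00354, adjusted 0.0248, higher in 14 of 16). The median merged width of these regions was 7618 bp for intronic, 5454 bp for start-site and 6489.5 bp for intergenic distal ones. A wider region can hold more peaks to take the highest from, and the part of width was not tested.

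The highest summits among the 123 regions called in every library lay in a few long genes. PCDH7, a protocadherin of cell-cell adhesion, held the strongest at chr4:30749007-30851126 in its intron 1, with a summit fold of 6.76 to 11.7 and a median of 9.70. PCDH7 also held another of the 8 strongest, at chr4:30909420-30967062, with a median of 8.28. PPP3CA, the catalytic subunit of the phosphatase calcineurin, held 2, at chr4:101134322-101175012 (5.96 to 11.0, median 8.61) and chr4:101115359-101131182 (6.21 to 10.4, median 8.54). The remaining ones were in VMP1, a membrane protein of autophagy (median 8.25), PDE4B, a cyclic AMP phosphodiesterase (7.96), VTI1A, a SNARE protein of vesicle fusion (7.77), and MPP7, a scaffold of cell junctions (7.63). All but the VMP1 region overlapped super-enhancers of all 16 libraries, and the VMP1 region those of 11. Exons were touched by 6 of the 8. The 8 merged regions were 9643 to 102120 bp wide, against a median of 7618 bp over the 123. In the strongest PCDH7 region the WT libraries had a median of 9.40 and the KO libraries of 9.70, with ranges of 6.76 to 11.7 and 7.37 to 10.7 that overlapped.

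Summit heights of the regions called in all libraries were compared per region with limma on log2 summit fold centred on the median of each library, over 472 regions of which 123 were intronic distal. One intronic region passed for KO against WT. It lies in intron 17 of TANGO6, a gene of secretory-pathway transport, at chr16:69068036-69075653, and the nearest start site is that of HAS3, a hyaluronan synthase. Its summit fold was 3.503, 4.47 and 6.17 (lowest, median, highest) in WT and 5.01, 6.65 and 9.01 in KO libraries. The 4 KO replicate A libraries, at 7.46, 7.77, 9.01 and 7.87, were above every WT library, while the KO replicate B libraries, at 5.11, 5.84, 5.03 and 5.01, fell inside the WT range. The log2 difference was 0.54 ± 0.10 (SE; limma, Benjamini-Hochberg adjusted p = 0.00429). Of all 472 regions, 1.48% passed as higher in KO and 1.48% as higher in WT, against 1 and 0 of 123 intronic regions. At an unadjusted p under 0.05, 25 of the 123 differed between genotypes (20.3%, against 21.2% of the 472), 13 between treatments (10.6%, against 8.05%) and 4 between esiRNAs (3.25%, against 3.81%). Leaving out 1 library gave 1 to 6 adjusted calls. There were 4 without KO esiCT OXPT B, beside 19 of 482 regions of every class, and 6 of 295 intronic regions without KO esiHDAC4 UNT B, beside 28 of 1120 of every class. Without WT esiHDAC4 OXPT A and without KO esiHDAC4 OXPT B there were 3, and without any other library 1 or 2.

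Next to the threshold stood SLX4IP (log2 difference 0.37 ± 0.11 SE, limma adjusted p = 0.0553) and NTSR1, the neurotensin receptor (0.36 ± 0.12 SE, limma adjusted p = 0.0685), with higher values in KO. On the other side were the PCDH7 region at chr4:30898853-30906693 (-0.43 ± 0.12 SE, limma adjusted p = 0.0507), AKAP1, an anchor of protein kinase A on mitochondria (-0.33 ± 0.10 SE, limma adjusted p = 0.0553), and TXNRD1, a thioredoxin reductase (-0.34 ± 0.12 SE, limma adjusted p = 0.0981). None of these passed.

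For OXPT against UNT, 0 of 123 intronic regions passed in either direction (limma; 0.212% of the 472 regions were higher in OXPT and 0% higher in UNT). The region with the smallest p lay in PDP1, a phosphatase that activates pyruvate dehydrogenase. Its summit fold was 6.82, 7.34 and 7.46 in UNT and 4.23, 5.09 and 6.59 in OXPT libraries. The groups did not overlap before centring, and after centring on each library's median the log2 difference was -0.30 ± 0.09 (SE; limma adjusted p = 0.352). GRIN2B, an NMDA receptor subunit, and MPP7 had log2 differences of -0.27 each, while ESYT2, a membrane-tethering protein (0.31), AHDC1 (0.28) and NR6A1, an orphan nuclear receptor (0.28), were on the other side, all with a limma adjusted p of 0.507. With KO esiHDAC4 UNT B left out, 1 of 295 intronic regions passed as higher in OXPT, beside 6 of 1120 regions of every class. For esiHDAC4 against esiCT, 0 of 123 passed (0% of the 472 in either direction). The smallest p was that of NSMCE2, a SUMO ligase of DNA repair (-0.31 ± 0.10 SE, limma adjusted p = 0.816). TEAD1, a transcription factor of the Hippo pathway, had -0.24. ARHGEF37, FAM241A and BIK, a pro-apoptotic BH3-only protein, had 0.29, 0.22 and 0.25, with the same adjusted p.

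**Figure D3:**
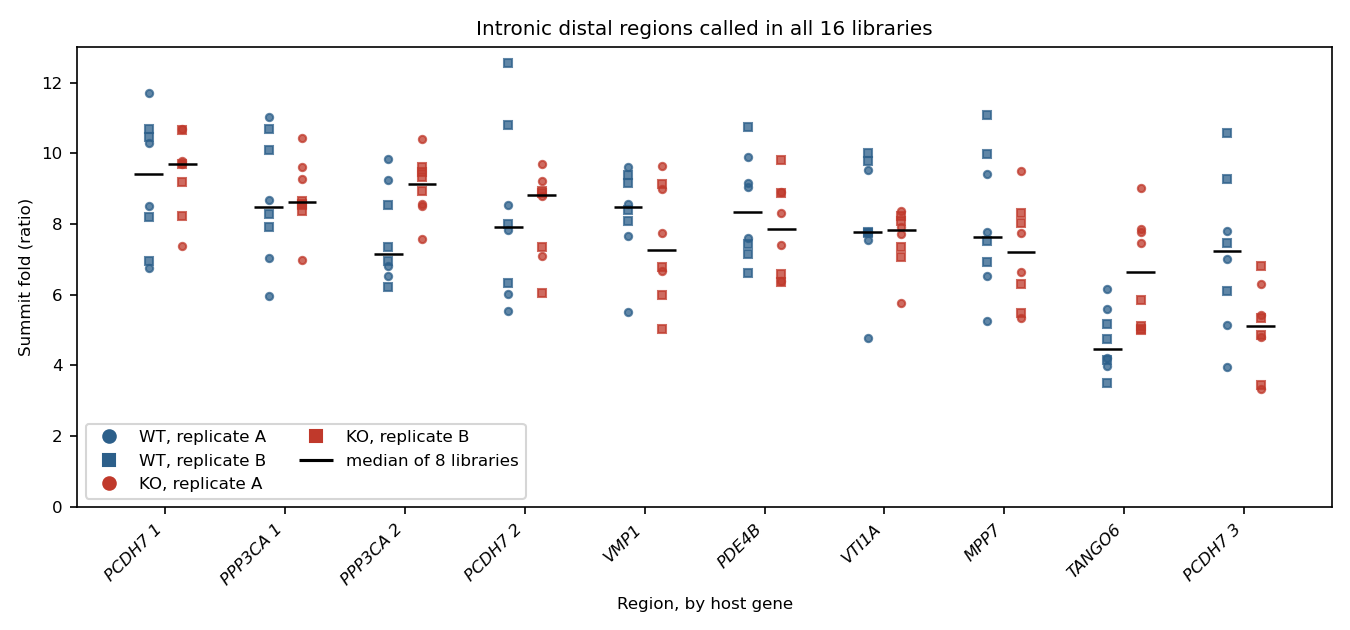
Summit fold (y axis, ratio) of 10 intronic distal regions called in all 16 libraries, by host gene, with 8 WT and 8 KO libraries each (circles replicate A, squares replicate B) and the median of each as a bar. The TANGO6 region is the only one of the 10 that passed the test between genotypes, with medians of 4.47 in WT and 6.65 in KO.

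Whether a region was called at all was compared for the 20090 merged regions called in 3 to 13 libraries, of which 4395 were intronic distal, with an exact conditional test stratified by letter. None passed after Benjamini-Hochberg adjustment in any of the 3 contrasts, so the counts that follow use an unadjusted p under 0.05 and are descriptions. More often in WT were 672 intronic regions (15.3%, against 13.6% of all tested regions) and more often in KO 5 (0.114%, against 0.0747%). The lists of the KO libraries were shorter, and with equal-length lists the counts were 14 (2.99%, against 2.49% of all regions tested there) and 8 (1.71%, against 1.85%). Without WT esiCT OXPT B, 1162 were more often in WT, and without any other single library fewer than that. The count in KO was 5 to 13 with 1 library left out, 13 without KO esiCT UNT A or without KO esiHDAC4 UNT B. THADA, DENND5B, a regulator of RAB GTPases, and CHD2, a chromatin remodeller, each held an intronic region called in all WT and in no KO libraries (exact conditional p = 4.08e-04, the smallest possible, adjusted 0.208). Among the intronic regions with that pattern, theirs had the highest summits. The THADA region at chr2:43468009-43470557 had a summit fold of 3.01 to 6.43 with a median of 4.83 in the WT libraries. In the other direction were TTC34 (6 KO and 0 WT libraries), YAP1, the coactivator of the TEAD factors (7 and 1), SPEG (4 and 0), GRIN2B (5 and 0) and MUC3A, a membrane mucin (6 and 1), the last 2 named after their values were seen. The YAP1 region, at chr11:102196670-102198953 in intron 4, had a summit fold of 3.64 to 5.96 in the 7 KO libraries and of 3.15 in the single WT library, WT esiCT UNT B.

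Between treatments there were 127 more often in OXPT (2.89%, against 1.43% of all tested regions) and 28 more often in UNT (0.637%, against 0.692%). These counts depended on single libraries. Without KO esiHDAC4 UNT B they were 127 and 157. The count in UNT was 127 without KO esiCT UNT B, 117 without KO esiCT UNT A and 30 to 67 without any other single library, and the count in OXPT was 127 to 215. Shares over all tested regions with 1 library left out are not given, for this or any other contrast. Such counts show dependence on single libraries and nothing particular to intronic regions. TBC1D22A, a RAB GTPase-activating protein, held a region at chr22:47128716-47130939 in its intron 12 that was called in all 8 OXPT and in none of the 8 UNT libraries (exact conditional p = 4.08e-04, the smallest possible, adjusted 1). Its summit fold in the OXPT libraries was 4.90, 5.15, 3.90 and 4.85 in replicate A and 4.71, 6.09, 5.79 and 3.17 in replicate B, in WT and KO alike. NTRK2, a neurotrophin receptor, held a region called in 7 OXPT and 0 UNT libraries (exact conditional p = 0.00204, adjusted 1). The NTRK2 region had a median summit fold of 4.72. More often in UNT was a region in JMJD1C, a member of the histone demethylase family (6 UNT and 0 OXPT libraries). The 127 windows more frequent in OXPT held the AP-1 letters in 4.72%, the TEAD letters in 16.5% and a median GC content of 45%, against 4.98%, 14.9% and 47.0% over the 4395 tested intronic windows.

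Few intronic regions were called more often with either esiRNA. One was more frequent with esiHDAC4 (0.0228%, against 0.0348% of all tested regions) and 12 with esiCT (0.273%, against 0.184%). With 1 library left out these counts were 1 to 14 (14 without KO esiHDAC4 UNT B) and 12 to 59 (59 without KO esiCT UNT A). The former lay in TNFRSF1B, a TNF receptor, and was called in 5 esiHDAC4 and 0 esiCT libraries (exact conditional p = 0.0306, adjusted 1). TLE5, a corepressor (4 and 0), and NAV1 (5 and 1) came next without reaching that p. More frequent with esiCT were TBX19, a T-box factor (5 esiCT and 0 esiHDAC4 libraries), LINGO1 (4 and 0) and BABAM2, a subunit of a deubiquitinating complex of DNA repair (8 and 3).

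Regions present in both replicates of 1 group and absent from both of another were counted for 4 steps of the design. From WT esiCT UNT to WT esiCT OXPT, 788 intronic regions were lost (4.34%, against 5.57% of all merged regions) and 126 gained (0.694%, against 0.506%). From KO esiCT UNT to KO esiCT OXPT, 10 were lost (0.0551%, against 0.112%) and 239 gained (1.32%, against 1.62%). These opposite balances went with the lengths of the lists, since WT esiCT lists shortened with OXPT in both letters and KO esiCT lists lengthened. Between KO esiCT OXPT and KO esiHDAC4 OXPT, 150 were lost (0.826%, against 1.1%) and 74 gained (0.407%, against 0.292%). Between WT esiCT OXPT and WT esiHDAC4 OXPT, 93 were lost (0.512%, against 0.55%) and 172 gained (0.947%, against 1.07%). The steps share libraries and were not tested.

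Intronic distal regions were found in 5669 of 19970 protein-coding genes (28.4%). Of these, 2400 genes held 1 region, 1096 held 5 or more and 363 held 10 or more. A region called in 8 or more libraries was found in 1164 genes and a region called in all 16 in 87. Genes with 10 or more regions had a median length of 215 kb and genes over 5 kb with none 24.8 kb. A start-site region of their own was present for 67.3% of host genes, 80.8% of genes with a region called in 8 or more libraries and 60.2% of all genes.

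RAD51B, a gene of homologous recombination on chromosome 14, held 125 intronic distal regions over 910 kb, more than any other gene. Its regions per library were 2 to 63 with a median of 19, and averaged 37.0 ± 19.3 in WT and 13.6 ± 6.84 in KO (SD, n = 8 each). The KO lists were shorter: over all genes the median number was 4304 in WT and 1614.5 in KO libraries. WT esiCT UNT A and B, with 60 and 53, and WT esiHDAC4 UNT B, with 63, stood above all other libraries. RAD51B held 19 regions called in 8 or more libraries and 1 called in all 16. The other genes with the most regions were DST, a linker of cytoskeletal filaments (62), GSE1 (60), NSMCE2 (60), ZBTB20, a zinc-finger repressor (60), RBFOX3, a neuronal splicing factor (58), PTPRN2 (55), PPP3CA (50), GRIN2B (46), RUNX1, a transcription factor (46), CAMK2D, a calcium-dependent kinase (45), MPP7 (45), PCDH7 (45), HMGA2, an architectural chromatin protein (44), and PALLD, an actin-binding protein (44).

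These genes did not share 1 profile. PCDH7 held 12 regions called in 8 or more libraries and 6 called in all 16, and DST 13 and 3. RBFOX3 and PTPRN2, with 58 and 55 regions, held 1 each called in 8 or more and none in all 16, so their counts were made mostly of regions seen in few libraries. HMGA2 averaged 11.9 ± 6.45 regions in WT and 2.13 ± 2.23 in KO libraries (SD, n = 8 each), with 3 to 22 in WT and 0 to 5 in KO. GRIN2B averaged 11.8 ± 6.56 in WT and 13 ± 6.0 in KO, although the KO lists were shorter, and RBFOX3 5.38 ± 4.75 and 5.63 ± 5.85 (SD, n = 8 each). The other 13 of the 15 genes had higher means in WT, where the lists were longer. No test was made per gene.

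Per 100 kb of gene, among genes with 5 or more regions, the densest were EZR, the membrane-cytoskeleton linker ezrin (44.8), SLC2A1, the glucose transporter GLUT1 (44.7), IRS1, an insulin receptor substrate (38.0), SLC4A1, the band 3 anion exchanger of red cells (35.4), and C1orf116 (35.1). EZR held 24 regions, of which none was called in 8 or more libraries, with 5.50 ± 2.14 in WT and 0.75 ± 0.886 in KO libraries (SD, n = 8 each). The shorter KO lists bear on this difference too, and their part was not tested. HDAC4, the target of the esiRNA, held 16 regions, 5 of them called in 8 or more libraries, and 1 to 10 per library. Its mean was 5.13 ± 2.75 with esiCT and 4.88 ± 2.42 with esiHDAC4 (SD, n = 8 each). FBXW7, the gene knocked out by a short deletion within it, held 2 regions, with 0 or 1 per library. A knockdown of mRNA or the loss of FBXW7 cannot be read from these regions.

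**Figure D4:**
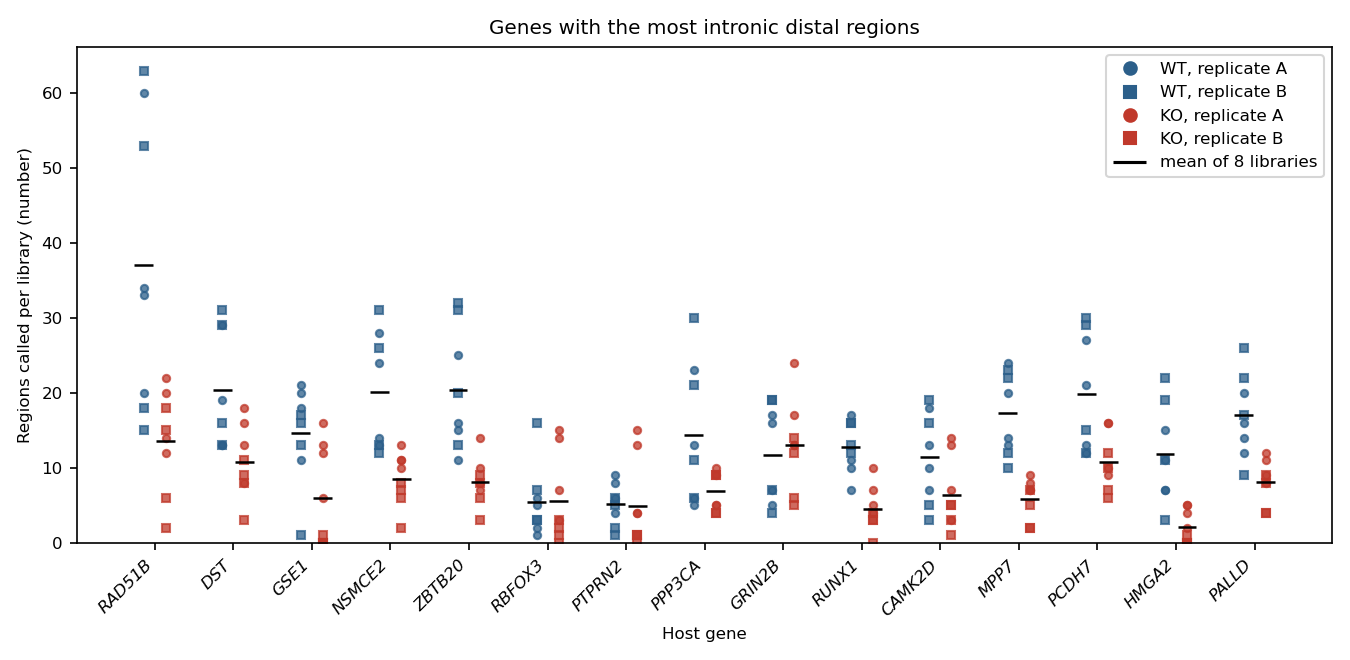
Intronic distal regions called per library (y axis, number) in the 15 genes with the most of them (x axis), with WT libraries in blue, KO libraries in red, circles for replicate A, squares for replicate B and the mean of 8 libraries as a bar. RAD51B reaches 63 in a WT library and 22 in a KO library, and GRIN2B and RBFOX3 are the 2 genes whose KO mean is the higher one.

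Gene lists gave the background of the cell type and of the treatments. Each is set against the 28.4% of all protein-coding genes that held a region, and longer genes hold more, so the median length is given where it departs most. Of 16 colorectal epithelial genes, 8 held a region, 29 regions in all, among them EHF, an epithelial ETS factor (10), and CDH1, E-cadherin, and KRT8, a keratin (4 each). EPCAM, an epithelial adhesion molecule, held 1 region, which all 8 WT libraries and 5 of the 8 KO libraries called. Of 19 marker genes of blood, fibroblasts, endothelium, muscle, neurons and liver, 6 held a region. RBFOX3 and SYT1, long neuronal genes, accounted for 58 and 28 of these 94 regions, and PTPRC, the leukocyte marker, for 1.

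The 4 signalling lists had median gene lengths of 65.3 kb (WNT), 84.9 kb (EGFR and MAPK), 70.7 kb (YAP and TEAD) and 81.7 kb (TGF-beta and SMAD), against 27.5 kb over all protein-coding genes, and were not tested. Of 26 WNT pathway genes, 12 held 89 regions, with ZNRF3, a ubiquitin ligase that removes the WNT receptor, at 26, TNIK, a kinase of the TCF4 complex, at 24, TCF7L2, the main TCF factor of the colon, at 15, and RNF43, the relative of ZNRF3, at 9. One RNF43 region was called in all 16 libraries, and RNF43 held 4.38 ± 1.302 regions in WT and 4.25 ± 1.75 in KO libraries (SD, n = 8 each), against 8.88 ± 2.42 and 3.63 ± 2.39 in ZNRF3. Of 24 EGFR and MAPK genes, 11 held 73 regions, with MET, the hepatocyte growth factor receptor, at 19 and EGFR at 17. Of 18 YAP and TEAD genes, 11 held 77, with TEAD1 at 21 and YAP1 at 15. Of 20 TGF-beta and SMAD genes, 13 held 70, with the receptor TGFBR2 at 23, SMAD3 at 18 and the inhibitor SMAD6 at 11, of which SMAD6 had none in any KO library and 2.13 ± 1.73 in WT libraries (SD, n = 8). Over all genes, the median number of intronic distal regions was 4304 in WT and 1614.5 in KO libraries. The part of list length in the counts of single genes was not tested.

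Of 38 adhesion and actin genes, with a median length of 105 kb, 32 held 285 regions, led by DST (62), EZR (24) and MYO1E, a myosin (20). Of the 83 of these regions that were tested for presence, 16 were more frequent in WT at an unadjusted p under 0.05 (against 15.3% of the tested intronic regions and 13.6% of all tested regions) and none in KO. Of 8 class IIa HDAC and MEF2 genes, with a median length of 101 kb, 7 held 46 regions, with HDAC9 at 12 next to HDAC4 and HDAC7 at 7. Of 15 regions tested there, 2 were more frequent in WT, against the same percentages, and none in either esiRNA.

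Further lists relate to the drug and to FBXW7. Of 25 p53 target genes, with a median length of 22.97 kb, 7 held 8 regions, of which SESN1, a sestrin of the stress response, had 2. Of 28 genes of platinum transport and adduct repair, 12 held 26, with ERCC1, a subunit of the nucleotide excision nuclease, and FANCA, of the Fanconi pathway, at 5 each, and none of the 5 tested regions differed at an unadjusted p under 0.05. Of 17 AP-1 and ATF genes, 6 held 14, with ATF3, a stress-induced factor, at 7. ATF3 had 0, 1, 1 and 0 regions in the UNT libraries of replicate A and 2, 1, 0 and 0 in those of replicate B, against 2, 4, 3 and 2, and 1, 3, 1 and 1, in the OXPT libraries. The counts overlapped but were higher with OXPT in 7 of 8 pairs, which was not tested. Of 16 genes of FBXW7 substrates, 8 held 18, with MED13L and SREBF1, a regulator of lipid synthesis, at 5 and NOTCH1 at 3. One SREBF1 region was called in all 16 libraries.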

How the data were processed

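H3K27ac was profiled by ChIP-seq in 16 HCT-116 libraries. Per the methods of the study and the submitters' processing notes, the authors used Trimmomatic 0.39 for trimming and Bowtie2 2.4.4 for alignment to hg38, removed duplicates with SAMtools 1.18, called narrow peaks per library with MACS2 2.2.7.1 and called super-enhancers with ROSE. The deposited narrowPeak lists hold, per peak, its position, a summit fold over local background (a ratio) and −log10 p and q values. They hold no read counts, so the depth of the libraries is not given and a depth correction was not possible. The input libraries were not used here. The deposited super-enhancer lists hold positions. The study's methods kept super-enhancers that also carried H3K4me1, and the sources used here do not state whether the deposited lists precede that step.

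From the lists, 271549 of 272083 peaks on chromosomes 1 to 22 and X were merged with Python 3.11.15 and pandas 2.3.3 and placed on GENCODE 44 (19970 protein-coding genes), which may differ from the annotation the authors used. Bases were read from hg38 with pysam 0.24.0. A region was called in a library where at least 1 of its peaks overlapped it. The background per position was solved from the fold and the −log10 p of each peak.

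Groups came from the labels. Number, share, median width and median summit fold of each library were compared with two-sided exact permutation tests within replicate letters (4900 arrangements, smallest p 4.08e-04, and 0.0286 within 1 letter), the letters within groups (256 arrangements), and p-values were Benjamini-Hochberg adjusted over 18 tests. The letter was the block because the study's own model took the replicate as a batch. Presence was tested per region with an exact conditional test on regions called in 3 to 13 libraries, and summit fold with limma 3.58.1 (R 4.3.3) on regions called in 16. Scripts were tested on simulated data.

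Genes and regions named are the 15 genes with the most regions, the 5 densest, the 8 strongest regions called in every library, the 3 per contrast and direction with the smallest p of presence and of summit fold, the leading members of each gene list, FBXW7 and HDAC4. Some items that this rule names are not reported here. EPCAM, PTPRC, MUC3A and a further GRIN2B region fall outside this rule and were chosen after their values were seen. The members and lists were chosen with earlier results of these data known. Alternatives were equal-length lists (1752 peaks each), a −log10 q of at least 10, 1 fold minimum (3.01), peaks merged within 500 bp, over 10 kb from start sites, no replicate block and leaving out each library. Regions called in 2 or more libraries, regions free of exons and leaving out libraries in the presence test were added after seeing the data.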

Additional observations from a re-analysis of the deposited data

Results flagged for a closer look

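Among the 8 replicate A libraries, KO esiCT UNT A held the fewest intronic distal regions, with a log2 number of 10.80, and lay far from the others: its gap to the nearest library was 0.540 of the range, above Dixon's 95% critical value. In all, 32 groups of 8 libraries were examined in this way, and chance flags about 1 in 20. Without this library the comparisons of number and share between genotypes and between treatments kept their direction and their side of the unadjusted threshold. After adjustment the number between genotypes stayed under 0.05, while the share between treatments was over it.

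The lists also held 534 peaks outside chromosomes 1 to 22 and X over the 16 libraries, which the comparisons did not use.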

How the results depend on the processing

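For 31 results, 692 alternative values were computed. In 570 of them the direction and the side of the unadjusted threshold, or the count to within 1.5 times, was kept. With lists cut to equal length, the number differed by -0.11 (KO against WT, log2), 0.076 (esiHDAC4 against esiCT) and 0.36 (B against A), the share between genotypes by 0.49 points, and the summit fold by -0.12 (KO against WT) and -0.15 (B against A, log2). At a −log10 q of at least 10, the number differed by -0.61 (OXPT) and -1.19 (B against A), the share by 5.20 points (KO) and -0.35 points (OXPT), the width by -0.23 (KO), and the OXPT response of the number by 2.78 between genotypes. Over regions called in 2 or more libraries, the share under esiHDAC4 differed by -0.23 points, and the OXPT response in KO minus WT by 1.43 (number) and 0.083 points (share). Over regions free of exons, the number differed by -1.04 (B against A), the share by -2.03 points (KO) and -0.083 points (esiHDAC4), the summit fold by 0.12 (KO) and the response of the share by 0.49 points. The 1 fold minimum, merging within 500 bp and the 10 kb distance kept each comparison of number, share, width and summit fold on its side of the unadjusted threshold. The causes of these changes were not tested.

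Without the replicate block, the width between genotypes was still -0.19 but with an exact permutation p of 0.0592. No other comparison crossed the unadjusted threshold without the block. The calls after adjustment over 18 tests were lost without it: exact permutation tests gave an adjusted p of 0.0703 for the number (KO), 0.106 for the share (OXPT) and 0.0703 for the width (B against A, through the other tests). The adjusted p of the number was 0.319 at equal length and 0.167 at a −log10 q of at least 10, and that of the share 0.0857 and 0.95, 0.0533 over regions called in 2 or more libraries and 0.0918 over regions free of exons (exact permutation tests).

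Leaving out 1 library at a time gave -0.21 to 0.44 for the number under OXPT, -0.39 to 0.25 under esiHDAC4 and -1.30 to -0.68 for B against A. The lone values below 0 under OXPT and above 0 under esiHDAC4 (-0.21 and 0.25) came without KO esiHDAC4 UNT B. The OXPT response of the number was 0.95 to 1.60 and that of the share -1.17 to 0.39 points. The last turned to 0.39 without either KO esiCT library of replicate B. The share under esiHDAC4 was -0.27 to 0.94 points, below 0 without KO esiCT UNT A (-0.27) and without WT esiHDAC4 OXPT B (-0.010). The width ranged from -0.23 to -0.14 (KO, past 0.05 in 12 of 16 cases), -0.16 to -0.050 (OXPT) and -0.18 to -0.093 (esiHDAC4), and the summit fold from 0.079 to 0.15 (KO). The intronic regions called by limma were 1 to 6 (KO) and 0 to 1 (OXPT). The highest counts came without KO esiHDAC4 UNT B: 6 (KO) and 1 (OXPT) of 295, beside 28 and 6 of 1120 of every class. Without read counts, a region missing from a short list cannot be told from a region without the mark.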

Other observations

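The share of called intronic windows with the AP-1 letters ran from 3.44% in KO esiHDAC4 UNT B to 5.69% in WT esiCT UNT A, and it was lower with OXPT than without in 4 of 4 WT pairs (for example 5.69% and 4.91% in WT esiCT A, and 5.33% and 4.26% in WT esiCT B). In KO the 4 pairs moved both ways, from 4.99% to 5.06% in esiCT A and from 4.81% to 4.77% in esiCT B. The difference was not tested. The TEAD letters stayed between 13.7% and 15.8% in every library.

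Chromosome 17 carried 6.83% of all intronic distal regions, and 5.97% to 9.92% of those called in a library. Chromosome X carried 0.595% of the regions.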
